A study of Mus musculus with 42 samples.

Results

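The Hedgehog pathway genes described here were Gli1, Gli2, Gli3, Ptch1, Hhip, Smo, Shh, Ihh and Foxf1, found by their gene symbols in tables of normalized gene counts from mouse colon RNA-seq. These 9 genes stood among 19227 named genes over 12 tables, each of which set a control group beside a deleted or treated group. The 42 libraries came from Gli1-tdTomato+ stromal cells (12 libraries), Muc2-mCherry+ goblet cells (12) and colonic organoids (18). Proximal and distal colon were sorted separately at day 30 after tamoxifen, from male and female mice of 2 to 4 months. All of these mice, controls included, carried Gli1-CreERT2, a tamoxifen-dependent Cre recombinase driven by Gli1. The controls GWTT (stromal) and GWTM2 (goblet) were given without a floxed Smad4 or Alk3 allele. GS4T and GS4M2 mice were Smad4 fl/fl, and GA3T and GA3M2 mice were Alk3 fl/fl (Alk3 is Bmpr1a, a type I BMP receptor). The Rosa26 tdTomato label marked cells in which Gli1 had been active at tamoxifen and the descendants of those cells, whereas Muc2-mCherry mice reported the goblet cell mucin gene. By design, deletion was directed to Gli1+ cells and not to the sorted goblet cells. Organoids were wild type and received no cytokine, 10 nM IL-1α with IL-1β, or 10 nM IL-17A for 12 or 72 h, in a medium with EGF, Noggin, R-spondin1, Wnt3a and CHIR. Sorted groups held 2 libraries each and organoid groups 3, and whether animals were pooled was not given in the sources used here. P-values therefore measure only the spread between these libraries. For 2 libraries against 2, groups that do not overlap arise with a probability of 0.33 when nothing differs, and for 3 against 3 with 0.1. The share of all genes without overlap is not given, so a lack of overlap describes the values and does not test a change.

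In the Hedgehog pathway, the secreted ligands Shh and Ihh bind Ptch1, which otherwise holds the membrane protein Smo inactive. Active Smo lets the zinc finger factors Gli2 and Gli3 act as activators rather than repressors, and Gli1, Ptch1 and Hhip, a membrane protein that binds and sequesters the ligands, are classical target genes of that activity. In the gut the ligands are made by the epithelium and received by the mesenchyme beneath it, where the forkhead factor Foxf1 is a Hedgehog target. Reading ligand genes in goblet cells and response genes in Gli1-tdTomato+ cells thus covers part of the sending and of the receiving side of the signal. Other epithelial cells were not sorted, so their share of the ligand is not known here.

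Each library held between 14222902 and 23686940 reads assigned to named genes. Levels are given as normalized counts within a table (gene counts divided by the size factor of the library, as deposited), or as RPM (reads per 1000000 reads of named genes in the library) where tables were set side by side. A gene was called at an adjusted p below 0.05 (limma with Benjamini-Hochberg adjustment, on log2(normalized count + 1) over all genes with a mean of 10 or more) if its log2 fold change was also 1 or more in size. The stromal label held against its markers, since all 8 fibroblast markers were detected in every stromal library with a summed level of 43222 to 60195 RPM, against 0 to 22.4 RPM in goblet cells, where 5 of 8 had a row. The deleted genes were lower where the labels placed the deletion, and Bmpr1a was lower in goblet cells as well. Smad4 read 1604 and 1673 normalized counts in proximal GWTT against 705 and 835 in GS4T, and 1781 and 1703 against 680 and 1171 in the distal colon. Bmpr1a read 2960 and 3220 against 2233 and 1842 in proximal GA3T, and 3359 and 3485 against 2203 and 2043 in distal GA3T. The Smad4 change passed in the proximal colon (log2 fold change -1.09, adjusted p = 0.010). Its distal log2 fold change of -0.96 (adjusted p = 0.042) stayed under the fold threshold, and neither stromal Bmpr1a change passed (adjusted p = 0.12 proximal and 0.10 distal). In goblet cells Bmpr1a read 1966 and 2131 in proximal GWTM2 against 1572 and 1336 in GA3M2. Distal values were 1588 and 1868 against 1372 and 1410. Goblet Bmpr1a was also lower in both GS4M2 groups. In the stroma of GS4T, Bmpr1a read 2722 and 3008 against 2813 and 3063 in proximal GWTT, which overlapped. Distal GS4T read 2545 and 2527 against 2944 and 3062, which did not. Bmpr1a was higher in GS4T than in GA3T stroma by 0.58 proximal and 0.42 distal on the log2(RPM + 1) scale (limma adjusted p = 0.27 and 0.30). A lower Bmpr1a was thus not confined to Alk3 deletion, and its stromal fall alone is no specific check of the deletion.

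Other cell types were measurable in the stromal sort and moved with genotype. Summed over 7 epithelial markers, of which only Cdx2 was at 0 in any library, the level was 11.4 to 432 RPM in proximal and 47.8 to 146 RPM in distal GWTT. It reached 1075 to 1312 RPM in proximal and 574 to 1134 RPM in distal GS4T, and 429 to 654 RPM and 350 to 828 RPM in GA3T. The 6 macrophage markers summed to 151 to 229 RPM in proximal GWTT, 767 to 1335 RPM in GS4T and 668 to 1217 RPM in GA3T, and to 458 to 591, 917 to 1730 and 612 to 888 RPM in the distal groups. The 4 lymphoid and plasma markers went the other way, from 1547 to 2745 RPM in proximal and 3417 to 4734 RPM in distal GWTT to 420 to 813 RPM and 109 to 438 RPM in GS4T. The 5 neutrophil markers summed to 2.08 to 6.30 RPM in proximal and 3.58 to 6.32 RPM in distal GWTT. They reached 66.4 to 82.2 RPM in proximal and 159 to 222 RPM in distal GS4T, and 13.3 to 47.6 RPM and 18.1 to 19.3 RPM in GA3T. Within the fibroblast list, whose sum hides it, the markers moved apart in GS4T. Cd34 (log2 fold change -2.32), Dpt (-2.02) and Lum (-1.78) were called lower in the proximal colon and, with Dcn (-1.06), in the distal colon (-2.41, -1.76 and -2.04), whereas Col1a1 (0.70 and 0.86) and Pdgfra (0.76 and 0.85) were higher in the mean without a call. In bulk RNA, fewer cells of a type and less RNA per cell cannot be told apart. The part of these cell types and of this shift among fibroblast markers in each stromal result below, the falls of Hhip, Gas1 and Cdon included, was not tested.

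The promoter sequence of 3 members is shown because the results turn on them: Hhip and Ptch1, the response genes that passed the test after Smad4 deletion, and Ihh, the ligand that passed it in organoids. Each run is the 250 bases before the transcription start in RefSeq (GRCm38.p6), 5′ to 3′ on the strand of the gene. Hhip lies at chr8:80058009-80058258 (minus strand), Ptch1 at chr13:63565736-63565985 (minus strand) and Ihh at chr1:74951673-74951922 (minus strand). The genes themselves span chr8:79965851-80058006 (Hhip), chr13:63508328-63573598 (Ptch1) and chr1:74945315-74951672 (Ihh) in GENCODE M21. The Ptch1 window lies inside this span, which begins at a start site further upstream. Capitals mark the palindrome GGCGCC, a motif bound by SMAD proteins.
Hhip: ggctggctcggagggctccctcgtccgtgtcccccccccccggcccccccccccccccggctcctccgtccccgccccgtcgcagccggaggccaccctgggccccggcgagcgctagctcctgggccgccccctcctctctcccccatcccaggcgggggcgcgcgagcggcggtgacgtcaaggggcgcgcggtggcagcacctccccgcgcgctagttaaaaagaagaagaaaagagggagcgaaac
Ptch1: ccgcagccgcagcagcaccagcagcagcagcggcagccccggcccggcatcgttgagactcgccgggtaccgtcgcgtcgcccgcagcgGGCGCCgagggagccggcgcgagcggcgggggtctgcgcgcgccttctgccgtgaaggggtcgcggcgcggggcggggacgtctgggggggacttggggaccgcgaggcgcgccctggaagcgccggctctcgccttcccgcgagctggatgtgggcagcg
Ihh: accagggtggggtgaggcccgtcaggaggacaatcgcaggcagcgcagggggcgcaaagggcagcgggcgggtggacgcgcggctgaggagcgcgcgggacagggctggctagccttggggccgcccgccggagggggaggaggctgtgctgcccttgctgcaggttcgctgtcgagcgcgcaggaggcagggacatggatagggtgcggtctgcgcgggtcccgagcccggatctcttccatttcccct
All 3 windows were rich in G and C, at 76%, 78.4% and 72%. GGCGCC, searched on both strands, was found in 9.59% of 32851 promoter windows of this length and, among the 6 members with a window (Gli2, Gli3, Ptch1, Hhip, Smo and Ihh), in Ptch1 alone. The Gli motif TGGGTGGTC was held by 0.225% of windows and by none of these members, and its shorter core GGGTGGT, which lies within it, by 3.92% of windows and by Gli2. The SMAD palindrome GTCTAGAC (0.167% of windows) and the AP-1 motif TGACTCA (4.46%) were in none of the 6.

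In control cells the ligand and the response genes were divided between the sorted populations. Ihh, the principal Hedgehog ligand of the colon epithelium, reached 168 ± 34.8 RPM (SD, n = 4) in goblet cells and 2.26 ± 2.89 RPM (n = 4) in Gli1-tdTomato+ cells. Its log2 difference of 6.05 (SE 0.52, adjusted p = 1.29e-05) on the log2(RPM + 1) scale passed in limma. Ptch1, the receptor, was the reverse, with 31.3 ± 4.38 RPM in goblet and 693 ± 243 RPM in stromal cells (log2 difference -4.36, SE 0.25, adjusted p = 1.58e-06). Smo, the signal transducer, read 44.7 ± 2.51 RPM in goblet and 157 ± 8.84 RPM in stromal cells, a log2 difference of -1.79 (SE 0.072, adjusted p = 2.55e-07). The 4 goblet and 4 stromal values did not overlap for any of these 3 genes. All 3 members tested were called, among 42.1% of all 12279 genes tested, so that passing this test was common. The stromal cells were also sorted by a label driven by Gli1, itself a target gene, so the high response genes are not independent of the sort.

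Gli1, Gli2, Gli3, Hhip and Foxf1 had a row in every stromal table and in no goblet table, and Shh the opposite. A gene without a row has no value here, and the lowest row totals in the tables were 13 to 29 reads, so these genes were described within one population only. Per kilobase of exon, Foxf1 had the highest stromal level of the members, at 111 ± 35.8 RPKM (RPM per kilobase; SD, n = 4 control libraries). Ptch1 followed at 48.8 ± 17.1 RPKM, Smo at 28.0 ± 1.57 and Hhip at 21.4 ± 3.55 RPKM. Gli1 and Gli2 followed at 15.9 ± 5.69 and 15.7 ± 2.04 RPKM, Gli3 read 8.98 ± 1.27 RPKM and Ihh 0.743 ± 0.947 RPKM. In this order Hhip and Gli1, and Gli1 and Gli2, did not differ by more than their summed SD, whereas every other pair of neighbours did. In goblet cells the order was Ihh (55.2 ± 11.4 RPKM), Smo (7.95 ± 0.446), Ptch1 (2.20 ± 0.309) and Shh (0.876 ± 0.458), each step wider than the summed SD. Shh, the other ligand, was thus far below Ihh in these epithelial cells. Shh shares 807 of 2847 exon bases and Gli1 327 of 4995 with genes on the opposite strand, and whether counting used strand was not given, so their levels are less certain than those of Gli2, Ptch1, Smo and Ihh, which share none. The shared bases are 188 of 9589 for Gli3, 175 of 9076 for Hhip and 98 of 2415 for Foxf1.

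**Figure D1:**
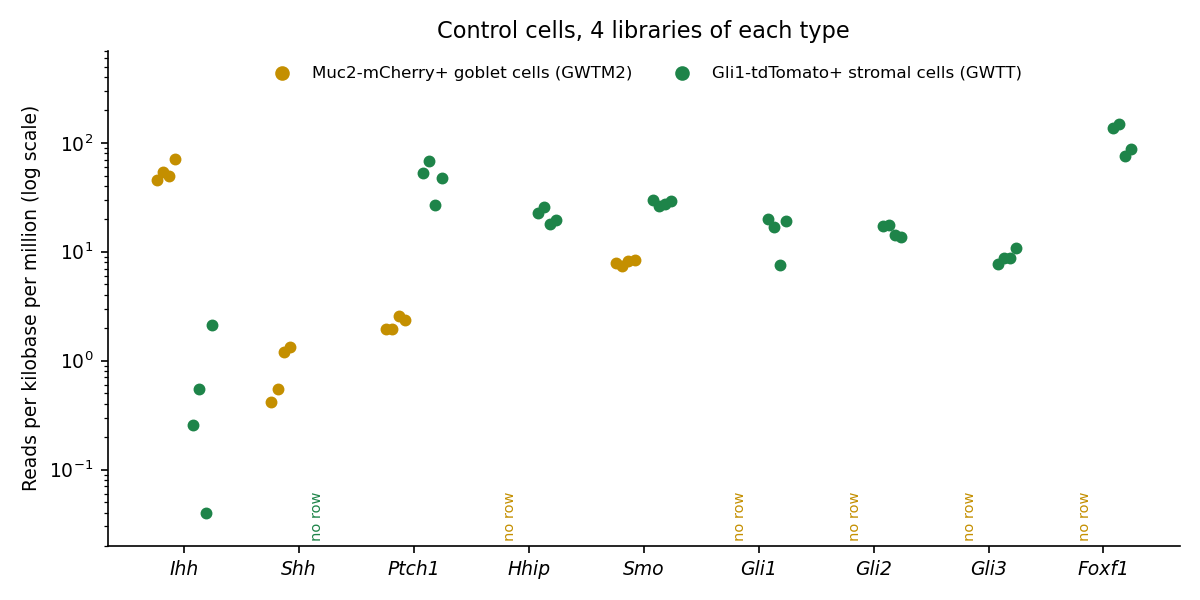
Level of each Hedgehog gene in the 4 GWTM2 goblet and 4 GWTT stromal control libraries, in RPKM on a log axis; each point is 1 library, and genes without a row in a population are marked so. Ihh has a mean of 55.2 RPKM in goblet and 0.743 RPKM in stromal cells, while Ptch1 and Smo are higher in stromal cells.

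Between colon segments, Foxf1 was the control stromal gene with the clearest difference. It read 182 and 210 RPM in proximal and 328 and 357 RPM in distal GWTT, so that both distal libraries lay above both proximal ones. The log2 difference (proximal minus distal) of -0.81 (SE 0.11, adjusted p = 0.020) passed the adjusted p but not the fold threshold. Ptch1 read 383 and 667 RPM in proximal and 751 and 969 RPM in distal cells, again without overlap (-0.75, SE 0.28, adjusted p = 0.24). The log2 differences of Hhip (-0.37, SE 0.11, adjusted p = 0.14) and Gli2 (-0.32, SE 0.085, adjusted p = 0.12) had the same sign and did not pass. In limma 0 of 8 members were called between segments, where 2.65% of all genes were and 5.39% passed without adjustment of p (p below 0.05 and that fold), and 0 members passed without adjustment or in edgeR. In control goblet cells Shh read 3.43 and 3.78 RPM in proximal against 1.19 and 1.57 RPM in distal libraries, which did not overlap (log2 difference 0.96, SE 0.23, adjusted p = 0.20). Likewise 0 of 4 members were called there, by limma, without adjustment or by edgeR, with 0.21% of all genes called and 3.99% passing without adjustment.

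After Smad4 deletion, the stromal Hedgehog gene that fell most was Hhip, the ligand-sequestering inhibitor. In the proximal colon Hhip read 2738 and 2926 normalized counts in GWTT and 405 and 337 in GS4T. In the distal colon Hhip read 3357 and 3813 in GWTT and 461 and 476 in GS4T. All GS4T libraries thus lay well below all controls in both segments. The log2 fold change was -2.93 in each segment (SE 0.13 and adjusted p = 0.0035 proximal, SE 0.12 and adjusted p = 4.04e-04 distal). The difference between the segments was -0.00 (SE 0.17, adjusted p = 1.00), with 0.195% of all genes called. The proximal GWTT libraries, which held 11.4 and 432 RPM of epithelial markers, read 162 and 176 RPM of Hhip. Proximal GS4T held more of these markers, 1075 to 1312 RPM, and the part of epithelial RNA in the Hhip fall was not tested. Without proximal GS4T replicate 1 the change kept its size (-3.07) but not its call (adjusted p = 0.066), whereas the distal call held without any single library.

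Ptch1, at once receptor and target gene, fell in distal GS4T cells, from 12320 and 15740 to 6964 and 6740 normalized counts, with no overlap between groups (log2 fold change -1.02, SE 0.15, adjusted p = 0.0091). In the proximal colon it read 6469 and 11070 in GWTT and 10289 and 6048 in GS4T. There both groups spanned nearly the same range (log2 fold change -0.10, SE 0.36, adjusted p = 0.87). The difference between the segments, 0.92 (SE 0.44, adjusted p = 0.56), did not pass. The distal call rested on few libraries: without distal GWTT replicate 2 it was -0.85 with an adjusted p of 0.065, and without GS4T replicate 2 it lay just under the fold threshold, with an adjusted p of 0.044.

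The Gli factors were lower by smaller amounts in distal GS4T cells. Gli2, the main activator, read 1941 and 1980 in GWTT and 1221 and 1350 normalized counts in GS4T (log2 fold change -0.61, SE 0.11, adjusted p = 0.014). Gli3, mainly a repressor, read 1213 and 1352 against 858 and 928 (-0.52, SE 0.12, adjusted p = 0.030). Gli1 read 1634 and 1353 against 875 and 1096 (-0.60, SE 0.16, adjusted p = 0.045). None of the 3 sets of libraries overlapped, and all 3 changes passed the adjusted p but stayed under the fold threshold. In this comparison groups did not overlap for 8 of 8 members and for 26 of 31 tested genes of the pathway list below. In proximal GS4T these counts were 5 of 8 and 22 of 31. The share over all genes is not given, so these counts do not test a change of the members. In the proximal colon Gli3 was the one to pass the adjusted p, with 1426 and 1709 in GWTT and 1092 and 888 in GS4T (-0.66, SE 0.15, adjusted p = 0.048), and Gli2 read 1651 and 1569 against 1346 and 1152 (-0.37, SE 0.12, adjusted p = 0.094).

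Gli1, the reporter gene of the sorted cells, split the proximal libraries in a way that genotype did not. GWTT read 642 and 1597 normalized counts and GS4T 1481 and 23.9. GS4T replicate 2 thus lay far below every other library of that table, while replicate 1 lay within the controls. In GA3T the pair read 1292 and 34.7, against 676 and 1680 in the same GWTT libraries scaled to that table. In RPM these 2 low libraries held 1.40 and 1.98 RPM of Gli1 and the other 10 stromal libraries 38.0 to 99.6 RPM. The gap between them, 3.71 on the log2 scale, ranked first among 10075 genes with a mean of at least 10 RPM, the next being 0.49 for Rpl23a; the libraries were set apart for their Gli1 level, so that this is a description and no test. Ptch1 read 354 and 431 RPM and Foxf1 257 and 244 RPM in the same libraries. The proximal log2 fold changes of Gli1, -2.40 (SE 1.89, adjusted p = 0.42) in GS4T and -2.31 (SE 1.71, adjusted p = 0.48) in GA3T, rested on these libraries, and without them were 0.55 and 0.28.

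Smo, the transducer, was slightly lower in GS4T in both segments. It read 2587 and 2703 against 2118 and 2069 normalized counts in the proximal colon (log2 fold change -0.34, SE 0.092, adjusted p = 0.068). Distal values were 2729 and 2391 against 1962 and 1982 (-0.37, SE 0.11, adjusted p = 0.062). Groups did not overlap, yet neither change passed. Foxf1 pointed up in the proximal colon, with 3072 and 3478 in GWTT and 4440 and 4401 in GS4T (0.44, SE 0.11, adjusted p = 0.055), and slightly down in the distal colon, with 5383 and 5800 against 4774 and 5180 (-0.17, adjusted p = 0.32). Expressed as a difference between segments, Foxf1 gave 0.60 (SE 0.15, adjusted p = 0.17). In RPM the Foxf1 means of proximal and distal GWTT were 196 ± 19.8 and 343 ± 20.4 (SD, n = 2 each), and those of GS4T 265 ± 10.8 and 301 ± 13.4. The smooth muscle markers, 5 of 5 detected, summed to 328 to 455 RPM in proximal GWTT and 932 to 1226 RPM in proximal GS4T, and to 977 to 1013 and 949 to 1590 RPM in the distal groups, and their part in the Foxf1 values was not tested.

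**Figure D2:**
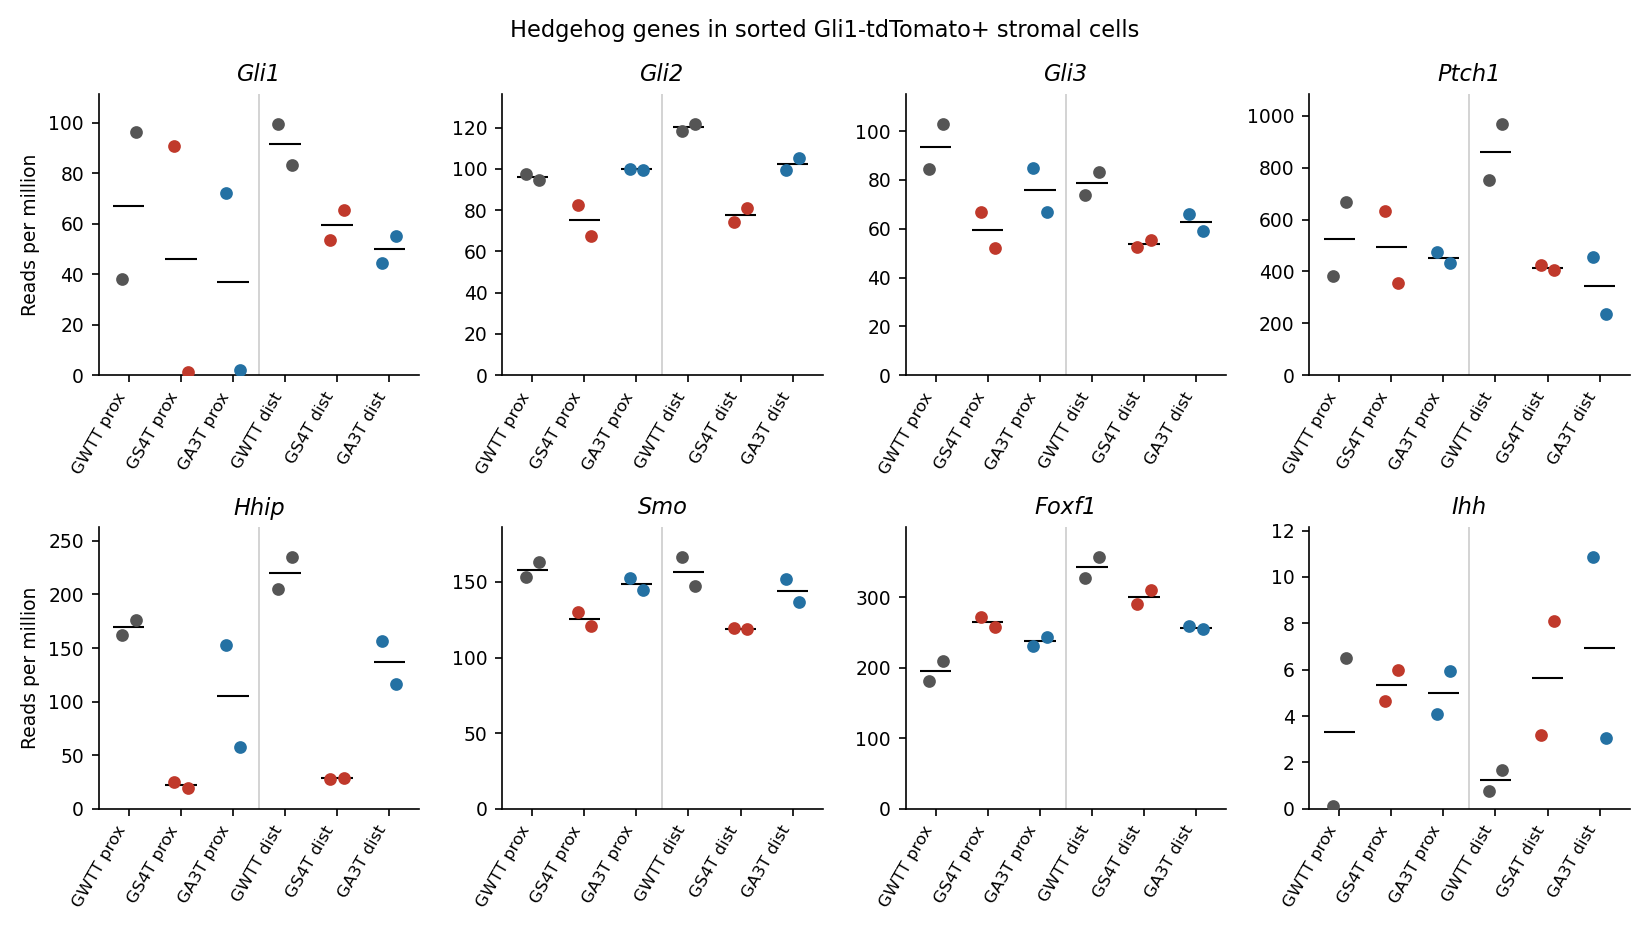
RPM of 8 members in each of the 12 Gli1-tdTomato+ libraries, 1 panel per gene with its own linear axis from 0; points are libraries, lines the group means of 2, and colours the genotype. All 4 GS4T libraries hold 19.7 to 28.5 RPM of Hhip against 162 to 235 RPM in the controls, and 2 proximal libraries hold 1.40 and 1.98 RPM of Gli1.

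Over the members with a row, 1 of 8 was called in proximal GS4T cells, where 9.6% of 15315 genes were called and 4.36% were called lower. In distal GS4T cells 2 of 8 were called, with 13.9% of 15258 genes called and 6.08% lower. All 3 calls were decreases. The members' median log2 fold change was -0.35 for proximal and -0.56 for distal cells, beside 0.02 and 0.00 over all genes tested.

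Alk3 deletion, which removes a receptor of the BMP pathway upstream of Smad4, gave Hhip changes of smaller size. Proximal Hhip read 2881 and 3077 normalized counts in GWTT and 2732 and 1017 in GA3T (log2 fold change -0.84, SE 0.47, adjusted p = 0.36). GA3T replicate 1 was close to the controls, and replicate 2 lay far below them. Replicate 2 is also the GA3T library that held 1.98 RPM of Gli1, so the proximal Hhip change rested on that library. Distal Hhip read 3830 and 4339 against 2794 and 2253, without overlap (-0.70, SE 0.15, adjusted p = 0.13). GS4T and GA3T were set against the same GWTT libraries, so the deletions were compared directly in RPM. Distal Hhip read 28.2 and 28.5 RPM in GS4T and 157 and 117 RPM in GA3T. This difference of -2.22 (SE 0.18, adjusted p = 0.035) passed in limma, where 0.139% of all genes were called, and missed in edgeR (-2.25, adjusted p = 0.058). It lost its call without either GS4T library (adjusted p = 0.11 and 0.075) or GA3T replicate 1 (-2.01, adjusted p = 0.11). Proximal values were 24.9 and 19.7 RPM in GS4T and 153 and 58.0 RPM in GA3T, also without overlap (-2.04, SE 0.44, adjusted p = 0.25, 0.0349% of all genes called and 3.16% passing without adjustment, Hhip among them).

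Distal Ptch1 in GA3T read 14055 and 17913 normalized counts in GWTT and 8096 and 4538 after deletion. The groups did not overlap, but the GA3T libraries also differed widely from each other (log2 fold change -1.39, SE 0.31, adjusted p = 0.14). In the proximal colon Ptch1 read 6807 and 11639 against 8496 and 7555, with GA3T inside the control range (-0.15, adjusted p = 0.78), and the segments differed by 1.24 (SE 0.48, adjusted p = 0.66). Distal Gli1 read 1864 and 1540 against 792 and 1063 (-0.88, SE 0.19, adjusted p = 0.13) and distal Foxf1 6141 and 6600 against 4612 and 4925 (-0.42, SE 0.12, adjusted p = 0.19). Both genes were lower in both GA3T libraries than in either control. In distal GA3T groups did not overlap for 8 of 8 members and for 24 of 31 tested genes of the pathway list below, while 0 genes were called. Proximal GA3T gave 3 of 8 and 23 of 31. With no share over all genes given, these counts do not test a change either. Proximal Foxf1 read 3232 and 3657 against 4143 and 4273 (0.29, adjusted p = 0.24), and its segment difference was 0.71 (SE 0.15, adjusted p = 0.44). Gli2, Gli3 and Smo had log2 fold changes between -0.33 and 0.06 in GA3T.

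In limma 0 of 8 members were called in either set of GA3T cells, where 0.358% of proximal and 0% of distal genes were called. Without adjustment of p, 0 members passed in the proximal and 2 (Ptch1 and Ihh) in the distal colon, beside 9.46% and 7.77% of all genes. EdgeR called 0 members in both, while DESeq2 called 0 in the proximal and the same 2 in the distal colon (Ptch1 log2 fold change -1.34, adjusted p = 5.7e-04; Ihh 2.47, adjusted p = 0.019). The members' median log2 fold change was -0.12 for proximal and -0.37 for distal cells, beside 0.01 over all genes in each. For the segment differences, 0 of 8 members were called in GS4T (0.195% of all genes, 5.06% and 0 members without adjustment) and 0 of 8 in GA3T (0% of all genes, 3.13% without adjustment, Ptch1 among them), and edgeR called 0 in both.

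**Figure D3:**
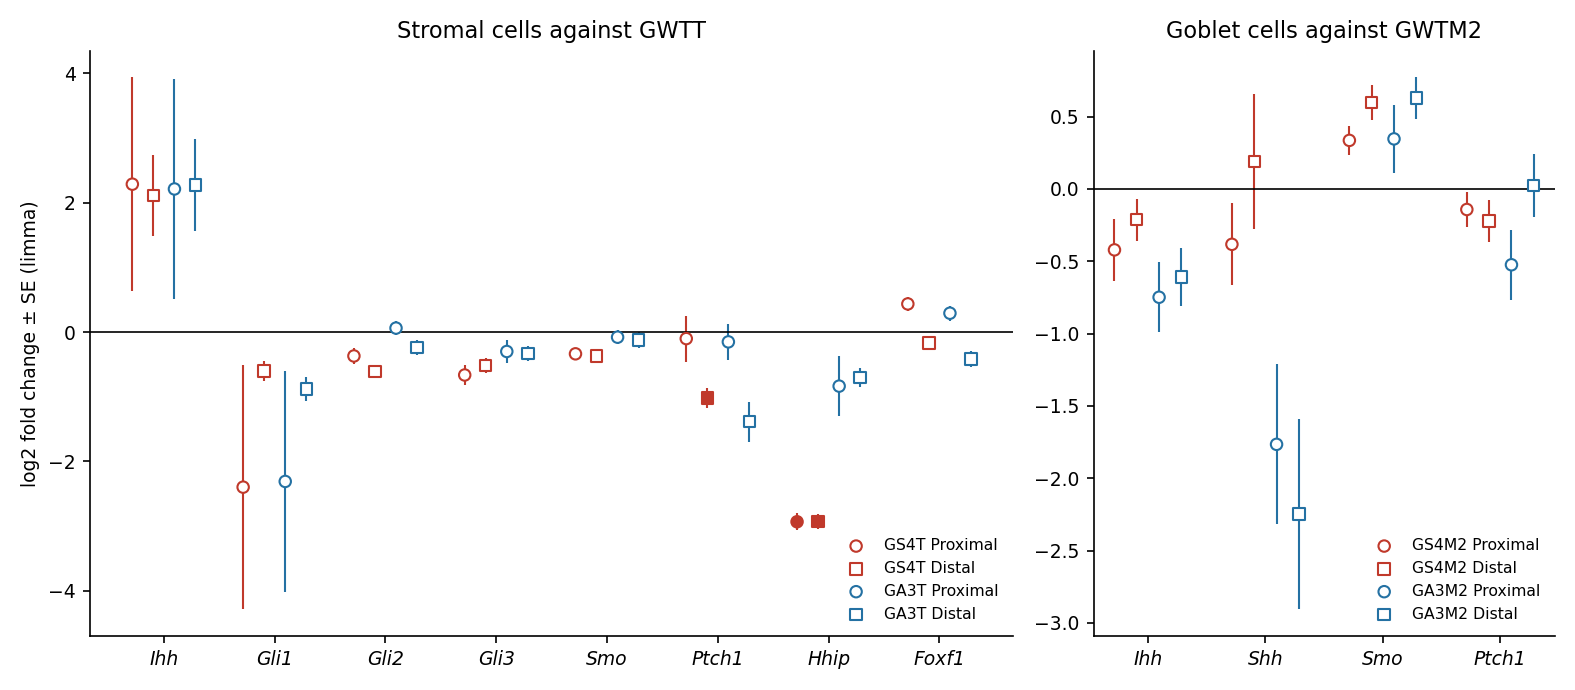
Log2 fold change of each member in the 4 stromal and 4 goblet comparisons (deleted minus control, log2 of normalized count plus 1); bars are the standard error of the limma fit and circles are proximal and squares distal comparisons, and filled points mark the calls. Hhip lies at -2.93 in both GS4T comparisons, and the proximal Gli1 points carry the widest errors, 1.89 and 1.71.

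Ihh, the epithelial ligand, was present at low level in the stromal sort. It was above both controls in the 4 distal deleted libraries, while the 4 proximal ones lay below GWTT replicate 2. Distal Ihh read 12.7 and 27.1 normalized counts in GWTT and 52.3 and 135 in GS4T (log2 fold change 2.12, SE 0.63, adjusted p = 0.061), which DESeq2 called (2.22, adjusted p = 0.012) and so did limma with a replicate block (2.12, adjusted p = 0.021). In distal GA3T it read 14.5 and 30.8 against 193 and 58.5 (2.27, SE 0.71, adjusted p = 0.20). No distal library overlapped with those of the other group. Proximal Ihh read 2.07 and 108 in GWTT against 75.6 and 103 in GS4T (2.29, SE 1.65, adjusted p = 0.38), where 1 control library already stood at the level of the deleted ones. Without that control, GWTT replicate 2, proximal Ihh in GS4T was called (4.86, adjusted p = 0.0039). Against the same controls in GA3T it read 2.18 and 113 against 73.1 and 104 (2.21, SE 1.70, adjusted p = 0.49).

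In the control libraries Ihh was lowest where the epithelial markers were lowest. In proximal GWTT the libraries held 0.122 and 6.49 RPM of Ihh beside 11.4 and 432 RPM of summed epithelial markers. In distal GWTT it was 0.775 and 1.67 RPM beside 47.8 and 146 RPM, and in distal GS4T 3.19 and 8.09 RPM beside 574 and 1134 RPM. Distal GA3T held 10.8 and 3.03 RPM beside 828 and 350 RPM. Over the 12 stromal libraries Ihh amounted to 4.32 to 16.2 reads per 1000 epithelial marker reads (median 9.31), and over the 12 goblet libraries to 7.87 to 24.9 (median 16.4). By genotype the stromal ratio was 10.7 to 16.2 in GWTT, 4.32 to 7.13 in GS4T and 8.68 to 13.1 in GA3T. All 4 GS4T ratios lay below the lowest goblet ratio.

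**Figure D4:**
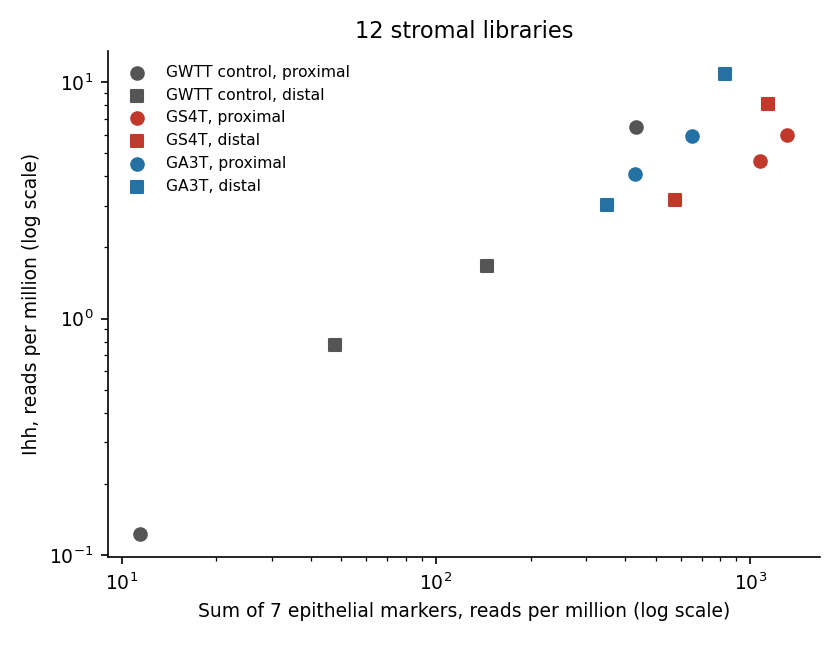
Ihh against the summed level of 7 epithelial markers in the 12 stromal libraries, both in RPM on log axes; points are libraries, coloured by genotype, with circles for the proximal and squares for the distal colon. The library with the least Ihh, 0.122 RPM, also holds the least epithelial marker RNA, 11.4 RPM.

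A list of 33 further pathway genes placed the members in context: 6 genes of ligand release and processing, 5 of reception, 14 of transduction and 8 of response. In proximal GS4T cells 3 of 31 tested rose and 5 fell, beside 9.6% of all genes called and 4.36% called lower, with a median log2 fold change of -0.03 against 0.02 over all genes. Gas1 and Cdon, co-receptors that present ligand to Ptch1, fell. Gas1 read 2648 and 2242 against 438 and 594 normalized counts (log2 fold change -2.25, adjusted p = 0.0060) and Cdon 963 and 1179 against 173 and 242 (-2.37, adjusted p = 0.0068). Among response genes Igfbp6 (-2.19, adjusted p = 0.039) and the transcription factor Osr1 (-1.65, adjusted p = 0.035) fell, while Foxl1, a forkhead factor of subepithelial mesenchyme, rose from 248 and 266 to 907 and 766 (1.69, adjusted p = 0.0066). Scube1 (2.03, adjusted p = 0.0081) and Scube3 (3.31, adjusted p = 0.013), of a family of secreted proteins of which Scube2 helps release the ligands, rose.

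In distal GS4T cells 1 of 31 rose and 6 fell, beside 13.9% of all genes called and 6.08% called lower, with a median of -0.30 against 0.00 over all genes. Gas1 read 1459 and 1135 against 615 and 626 (-1.05, adjusted p = 0.0080) and Cdon 622 and 429 against 278 and 225 (-1.04, adjusted p = 0.028). Both co-receptors thus passed in both segments of GS4T. Osr1 fell the most of the list, from 3041 and 3257 to 291 and 317 (-3.37, adjusted p = 3.54e-04), and the cilium genes Evc (-1.08, adjusted p = 0.0030) and Gpr161 (-1.49, adjusted p = 0.0061) fell in the distal colon. Scube1 rose (1.45, adjusted p = 0.0080). In GA3T cells Foxl1 (1.81, adjusted p = 0.049) and Scube1 (1.56, adjusted p = 0.0496) rose in the proximal colon, where 7 of 31, Cdon and Gas1 among them, passed without adjustment, beside 9.46% of all genes. In the distal colon limma called 0 of 31, and 3, Osr1 and Scube1 among them, passed without adjustment, a share near the 7.77% of all genes. In each of the 4 goblet comparisons 0 of 16 genes were called by limma, also without adjustment.

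Genes with the most similar profile were named by the smallest root mean square difference between centred mean log2 levels over the 6 stromal groups, among 13497 genes. For Hhip these were Dner (0.21), Mgp (0.24), Igkv4-72 (0.33), Atp1a4 and Igkv12-41 (both 0.35), where the profile of Hhip itself had a root mean square of 1.24. Ptch1 (0.42) was nearest to Gpr34 (0.10), Lpar4 (0.12), Dgke (0.13), Gpr157 (0.14) and Abraxas1 (0.14), and Foxf1 (0.25) to Ece1 (0.052), Nipa1 (0.068), Cpne2 (0.069), Adgra2 (0.076) and Cd300lg (0.082). Gli1 (1.03) was nearest to Avpr1a (0.22), and its following genes, Rasl11a, Tmem26, Tg and Epha5, were at 0.46 to 0.53. The group means of Gli1 include the libraries at 1.40 and 1.98 RPM, on which this profile rests. With 6 group means that share libraries of 2, these lists describe likeness in these data alone.

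In goblet cells, the only epithelial cells sorted here, Ihh was lower in the mean of every deleted group. In limma 0 of 4 members with a row were called in any of the 4 comparisons. In GS4M2 the background was 0.325% of proximal and 0% of distal genes called, and in GA3M2 0.0899% and 0%. EdgeR and DESeq2 each called 0 members in all 4, and without adjustment 4.28% of proximal and 2.7% of distal GS4M2 genes and 6.83% of proximal and 4.12% of distal GA3M2 genes passed, of the members Shh alone, in both segments of GA3M2. Ihh in GA3M2 read 2712 and 3940 normalized counts in proximal GWTM2 against 2180 and 1736 (log2 fold change -0.75, SE 0.24, adjusted p = 0.26). Distal values were 2356 and 2896 against 1979 and 1483 (-0.61, adjusted p = 0.38). Both groups were apart from their controls. In GS4M2 Ihh read 2548 and 3727 against 2009 and 2636 in the proximal colon, which overlapped (-0.42, adjusted p = 0.38), and 2463 and 3001 against 2204 and 2500 in the distal colon, likewise (-0.21).

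Shh showed the widest goblet difference, at a level near the filter. In GA3M2 it read 62.1 and 68.5 normalized counts in proximal GWTM2 against 11.1 and 30.4 (log2 fold change -1.77, SE 0.55, adjusted p = 0.26). In the distal colon it read 20.2 and 27.3 against 2.94 and 5.75 (-2.25, SE 0.66, adjusted p = 0.34). All 4 GA3M2 libraries lay below their controls. GS4M2 values were 51.5 and 42.7 against 58.4 and 64.8 in the proximal colon (-0.38, adjusted p = 0.53) and 37.0 and 21.1 against 21.1 and 28.3 in the distal colon (0.19).

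In normalized counts Smo lay above both of its controls in all 8 deleted goblet libraries, and none of the changes passed. In RPM this did not hold for proximal GA3M2 replicate 2, at 45.7 RPM against 46.1 and 47.0 RPM in its controls. Distal GWTM2 read 778 and 749 normalized counts against 1099 and 1212 in GS4M2 (log2 fold change 0.60, SE 0.12, adjusted p = 0.37). In distal GA3M2 it read 744 and 723 against 1180 and 1090 (0.63, SE 0.14, adjusted p = 0.32). Proximal log2 fold changes were 0.34 in GS4M2 and 0.35 in GA3M2. Ptch1 stayed between 362 and 658 normalized counts in all goblet libraries, with log2 fold changes of -0.14 and -0.22 in GS4M2 and of -0.52 and 0.02 in GA3M2. The 8 goblet markers summed to 30946 to 63203 RPM in GWTM2, 36590 to 49546 RPM in GS4M2 and 10025 to 24447 RPM in GA3M2, and their part in the GA3M2 values was not tested. In the proximal GS4M2 table the headings of the study's own table and the deposited column names disagreed on which columns are controls, and the deposited names, whose GWTM2 reads equal those in the GA3M2 table, were used, since with the other reading every sign of that comparison would turn.

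In wild-type organoids, a culture of colon epithelium, Ihh rose after 72 h of either cytokine, and some libraries behind this were not independent. Control-12h replicate 2 and Control-72h replicate 1 had identical reads in all 14554 genes compared, and so had replicate 4 of both times, so 2 of the 3 control libraries served both time points. In addition IL-1-12h replicates 3 and 4, IL-17A-12h replicates 3 and 4 and Control-72h replicates 2 and 4 differed far less (chi-square per degree of freedom of 3.03 to 3.32) than the other organoid pairs (26.2 to 212). Both cytokines were set against the same controls at each time. For Ihh, and for the IL-1 change of Smo, the 72 h results are therefore also given with these libraries averaged or left out.

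At 12 h Ihh read 4283, 3366 and 3141 normalized counts in control and 3863, 2429 and 2350 in IL-1-treated organoids (log2 fold change -0.35, adjusted p = 0.89), and with IL-17A 4496, 3528 and 3289 against 4111, 2459 and 2409 (-0.37, adjusted p = 0.93). The groups overlapped. At 72 h Ihh read 3191, 3150 and 3014 in control and 15401, 7323 and 9857 after IL-1 (1.73, SE 0.25, adjusted p = 0.0036). After IL-17A it read 13828, 5312 and 12127 against 3185, 3132 and 3008 (1.63, SE 0.35, adjusted p = 0.044). Every treated library lay above every control at 72 h. With the near-identical libraries averaged the IL-1 change passed (1.72, adjusted p = 0.018) and the IL-17A change did not (1.62, adjusted p = 0.16). With the shared control libraries left out, the only control was Control-72h replicate 2, itself near-identical to the left-out replicate 4. The changes of 1.72 and 1.62 in that fit are therefore no independent support. The time at which the shared control libraries were taken cannot be told from the labels. Exposure and time in culture thus cannot be told apart in the 72 h changes. The IL-1 call held without any single library, and the IL-17A call was lost without any one of them other than treated replicate 2 (adjusted p of 0.075 to 0.17).

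Smo fell in the same cultures. It read 742, 759 and 699 normalized counts in control and 389, 412 and 183 after 72 h of IL-1 (log2 fold change -1.25, SE 0.31, adjusted p = 0.016). After IL-17A it read 384, 557 and 180 against 741, 755 and 697, without overlap (-1.11, SE 0.39, adjusted p = 0.089). Averaging the near-identical libraries moved the IL-1 change to an adjusted p of 0.051. With the shared control libraries left out, which kept Control-72h replicate 2 alone, it was -1.30, and with a replicate block -0.91 (adjusted p = 0.066). It also lost its call without control replicate 2 (adjusted p = 0.054) or treated replicate 3 (-0.87). At 12 h Smo read 805, 783 and 728 against 727, 682 and 740 with IL-1 (-0.11) and 845, 821 and 763 against 722, 647 and 591 with IL-17A (-0.31, adjusted p = 0.93). Only the IL-17A groups did not overlap at 12 h, and with a replicate block that change passed the adjusted p but not the fold threshold. Ptch1 had log2 fold changes of -0.18 and -0.10 at 12 h and of -0.09 and 0.12 at 72 h, and its 72 h groups overlapped.

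Of the 3 members that passed the filter, 2 were called after 72 h of IL-1, with 23% of 13021 genes called (10.9% higher, 12.2% lower), and 1 after 72 h of IL-17A, with 7.94% called (5.02% higher). At 12 h limma called 0 of 3 with either cytokine, beside 0.0542% and 0.0385% of genes, as did edgeR and DESeq2, and 0 passed without adjustment, beside 0.922% and 1.08% of genes. Shh stayed at or under 1.38 RPM in all 18 organoid libraries, below the filter. Foxf1 had a row in the IL-1 72 h table alone, listed at 0 in the controls and at 0.625, 0.118 and 0.0568 RPM in the treated libraries, below the filter. In the pathway list, Hhat, the enzyme that attaches palmitate to the ligands, rose after 72 h of IL-1 from 30.2, 37.2 and 34.8 to 106, 54.8 and 110 (1.32, adjusted p = 0.025). The co-receptor Boc fell from 1035, 436 and 507 to 364, 158 and 92.1 (-1.80, adjusted p = 0.028), and after IL-17A Iqce, a cilium protein, fell from 210, 137 and 137 to 32.5, 81.9 and 31.5 (-1.83, adjusted p = 0.048). These were 2 and 1 of 16 genes tested. They rest on the same non-independent control libraries, and no fits with those libraries averaged or left out are given for them.

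Because controls were shared, treated organoids at 72 h were also compared with treated organoids at 12 h, in RPM and without controls. For IL-1, Ihh read 234, 149 and 145 RPM at 12 h and 799, 435 and 511 RPM at 72 h (log2 difference 1.70, SE 0.26, adjusted p = 0.0047), and Smo 44.1, 41.9 and 45.6 RPM against 20.2, 24.4 and 9.49 RPM (-1.33, SE 0.31, adjusted p = 0.013). Neither gene overlapped between times. Both were called, among 19.9% of all genes. These values count the near-identical IL-1-12h replicates 3 and 4 separately, and with them averaged the differences were 1.59 (adjusted p = 0.019) and -1.33 (adjusted p = 0.041). Smo fell short of the fold threshold without 72 h replicate 3 (-0.95). For IL-17A the differences were 1.64 (SE 0.33, adjusted p = 0.067) for Ihh and -0.98 (adjusted p = 0.17) for Smo. With its 12 h pair averaged they were 1.52 (adjusted p = 0.28) and -1.01 (adjusted p = 0.33). In this comparison 0 of 3 members were called by limma or edgeR and 1 (Ihh) passed without adjustment, beside 0.122% of all genes called and 14.8% passing without adjustment. Time in culture differs between these groups as well as exposure, and these cannot be told apart.

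**Figure D5:**
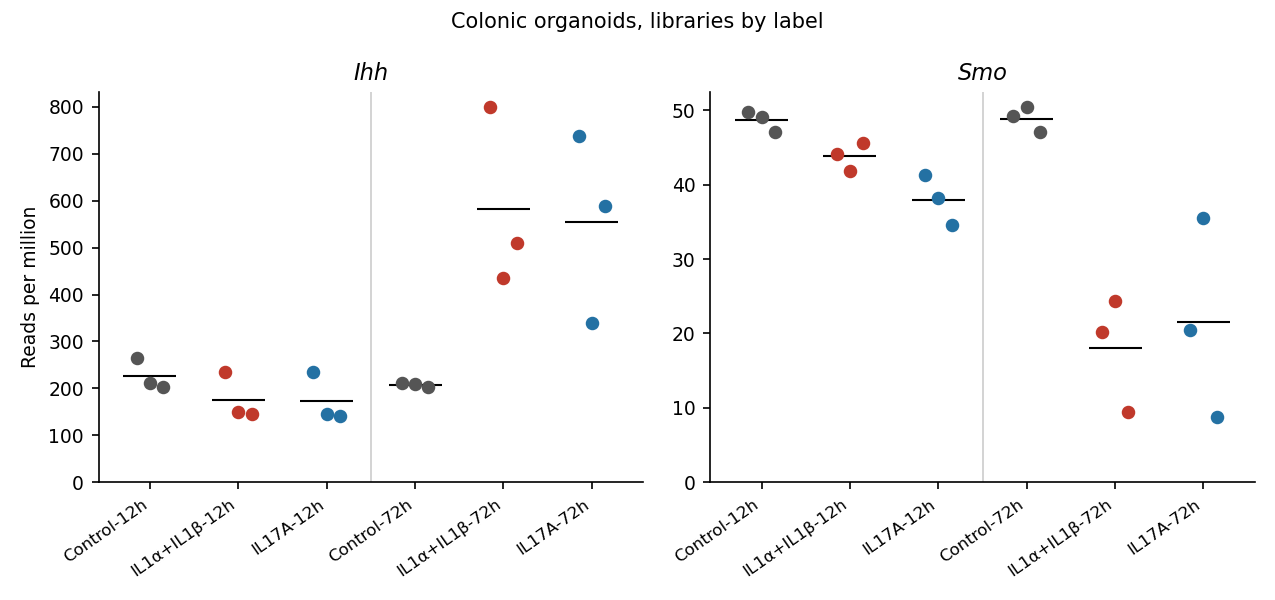
RPM of Ihh and Smo in the 18 organoid libraries by treatment and time, each panel with a linear axis from 0; points are libraries and lines the group means of 3. Ihh is at 203 to 211 RPM in the 72 h controls and at 339 to 799 RPM in the 72 h treated libraries, while Smo goes from 47.1 to 50.4 RPM to 8.75 to 35.6 RPM.

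The 7 epithelial markers summed to 6684 to 8021 RPM in the 72 h controls and to 9396 to 11162 RPM in the 72 h treated libraries, and the 8 goblet markers to 2449 and 2432 RPM in replicate 1 of both 72 h treatments, against 6706 to 10814 RPM in the others. These 2 libraries held the most Ihh of their groups, 799 and 738 RPM, and the other 4 treated libraries at 72 h held 339 to 589 RPM with goblet marker sums of 8508 to 10814 RPM. The 8 fibroblast markers had a row for 3, and 5 of 8 had none. The part of these shifts in the Ihh and Smo values was not tested.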

How the data were processed

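RNA was sequenced from sorted goblet and stromal cells and from organoids. Per the labels and the study's methods, the authors aligned reads uniquely to mm10 with STAR 2.5.3 and normalized gene counts with DESeq2 1.28.1; the gene counter, annotation and strand setting were not given in the sources used here. The deposited signal is a count divided by a size factor per library and table, and 100% of values came back as whole reads (tolerance 0.1), from which reads per 1000000 reads of named genes (RPM) were computed. The GS4M2 tables hold 4 rows without a gene name (20.9% to 28.2% of reads), which were left out. Each table was tested with limma 3.58.1 in R 4.3.3 (trend on log2(value + 1), mean of at least 10, Benjamini-Hochberg over all genes), without a replicate block. EdgeR 4.0.16 and DESeq2 1.42.0 on the recovered reads, other pseudocounts (0.1 and 10), filters, upper-quartile scaling and left-out libraries were alternatives. Controls are shared between the tables of both genotypes or cytokines. Gene models are of GENCODE M21. All members are named with values or ranges in every comparison where they have a row, together with pathway genes that were called (1 of them is counted but not reported here) and the 5 nearest profiles of 4 members. The members and lists were chosen with earlier results of these data known. The fits were tested on simulated data with changes of 2 and 3 on the log2 scale, and none smaller. Of genes changed by 2, 63% to 71.7% were called in the stromal tables and 67.6% to 92.2% in the others. In the stromal segment differences 54.2% (GS4T) and 53.3% (GA3T) were called. A change that did not pass is therefore not shown to be absent.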

Additional observations from a re-analysis of the deposited data

Results flagged for a closer look

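In IL-1-treated organoids the levels of Ihh and Smo at 72 h differed from those at 12 h, by 1.70 and by -1.33 on the log2(RPM + 1) scale, and both differences passed limma's test (adjusted p = 0.0047 and 0.013). With the near-identical 12 h libraries averaged they were 1.59 (adjusted p = 0.019) and -1.33 (adjusted p = 0.041). No control library enters this comparison, so it does not measure the change against control, and exposure and time in culture cannot be told apart in it.

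Distal stromal Hhip differed between Smad4 and Alk3 deletion by -2.22 on the same scale, which passed limma's test (adjusted p = 0.035) and not edgeR's (adjusted p = 0.058). All of the 2 GS4T libraries lay below all of the 2 GA3T libraries.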

How the results depend on the processing

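Of 143 alternative counts of called members, 134 stayed within 1.5 times the reported count, and of 573 alternative values of single genes 559 kept their direction and their side of the threshold. DESeq2 called 2 members in distal GA3T. Replicate numbers were shared by 2 libraries of each pair of groups, too few to show that they pair libraries, although the deviations of same-numbered libraries correlated at 0.80 and 0.81 at 12 h (IL-1 and IL-17A) and at -0.21 to 0.30 in the other comparisons. With this replicate block the 12 h change of Ihh was -0.28 (adjusted p = 0.022) with IL-1 and -0.29 (adjusted p = 0.0019) with IL-17A, and that of Smo with IL-17A -0.30 (adjusted p = 0.026), all under the fold threshold. The block called 1 member in proximal GA3M2 (Shh, -1.77), 1 after IL-1 at 72 h and 0 after IL-17A at 72 h. Averaging near-identical libraries, chosen after seeing the data, left 1 and 0 members called at 72 h. Leaving out controls with the same reads at both times, also chosen then, kept a lone control library, so no count is given. EdgeR called 0 members between Smad4 and Alk3 deletion in the distal stroma. With a pseudocount of 10 the segment difference of Hhip in GS4T turned to 0.0020. The cause of these changes was not tested.

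Leaving out each library in turn, where a lone sample is assumed to vary like the other group, gave 0 to 2 called members in proximal and 1 to 2 in distal GS4T, 0 to 1 in both GA3T tables, 1 to 2 after IL-1 and 0 to 2 after IL-17A at 72 h. The time difference gave 1 to 2 for IL-1 and 0 to 2 for IL-17A, and the comparison of the deletions 0 to 1 in both stromal segments. Gene values ranged from -5.35 to 0.55 for Gli1 and -0.29 to 4.86 for Ihh in proximal GS4T, and from -4.90 to 0.28 and -0.37 to 4.80 in proximal GA3T. Ptch1 ranged from -0.49 to 0.29 in proximal GS4T, -0.54 to 0.24 in proximal GA3T, -0.22 to 0.27 in distal GA3M2 and -0.039 to 0.31 after IL-17A at 72 h, Shh from -0.20 to 0.58 in distal GS4M2, and the segment difference of Hhip in GS4T from -0.14 to 0.13. Without proximal GS4T replicate 1 Hhip was at -3.07 with an adjusted p of 0.066. Hhip was at -1.55 in proximal GA3T without GA3T replicate 1, which left replicate 2 alone, the library with 1.98 RPM of Gli1. Distal Ptch1 in GA3T was at -1.81 without GA3T replicate 1. After IL-17A at 72 h Ihh lost its call without any of 5 of the 6 libraries (adjusted p of 0.075 to 0.17), all but treated replicate 2.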
